A study of Mus musculus with 32 samples.

Results

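The genes described here are Efhd2, Ptp4a2, Cep85, Dcdc2b, Pithd1, Pnrc2, Khdrbs1, Snhg3 and Tmem234. These 9 genes are spread over a stretch of mouse chromosome 4 that holds 415 RefSeq genes. They were chosen by their array signals, which differed between Myd88 knockout and wild-type colon. They were found by gene symbol, current or older, and every probe set of each gene was kept apart, which gave 26 probe sets of 9 genes among 18193 genes with a named probe set. Probe sets of 1 gene were read on the same arrays and are not replicates. A probe set is a group of short DNA probes that together report 1 transcript or several. Because the genotype difference chose these genes, it is given below as a description and carries no test. The AOM/DSS responses of the genes and the change of the genotype difference with treatment were tested. These contrasts were not the ones that chose the genes, but they are made from the same group means, so the choice is not independent of them.

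The RNA came from the distal colon of 32 mice of strain C57 BL6NCr, with 1 Affymetrix array for each mouse. The 10 treated Myd88-/- mice (KO) and the 10 treated wild-type mice (WT) received azoxymethane (AOM, a carcinogen that acts on the rodent colon) at 10 mg/kg by intraperitoneal injection at 6 to 8 weeks of age. From 1 week later their drinking water held 2% dextran sodium sulfate (DSS, an agent that damages the lining of the colon) for 3 days, after which they were killed. The 6 untreated KO and the 6 untreated WT mice carry no treatment, and their age, like the sex, batch and scan date of every mouse, is not in the labels. The labels name no cell type to which the knockout was limited, and they give the KO line as backcrossed to at least 98% congenicity with the B6NCr background of the WT mice. Which DNA of the donor strain the KO mice still held was not measured here. The labels call the arrays of a group biological repeats, so the tests below measure the spread between mice.

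Myd88 is the adaptor protein through which most Toll-like receptors and the interleukin-1 and interleukin-18 receptors signal, and its gene lies on chromosome 9, not on chromosome 4. The 9 genes are not known as members of a shared pathway. Efhd2 encodes a calcium-binding EF-hand protein of the actin cytoskeleton that is abundant in lymphocytes and macrophages, and Ptp4a2 encodes a prenylated phosphatase of the PRL family that binds the CNNM magnesium transporters. Khdrbs1 (an RNA-binding protein of the STAR family that acts in splicing), Pnrc2 (a coactivator of nuclear receptors that also links the decapping enzyme to nonsense-mediated decay) and Snhg3 (a noncoding RNA whose introns hold small nucleolar RNAs) act on RNA. Cep85 is a centrosome protein, Dcdc2b belongs to the doublecortin family of microtubule-binding proteins, Pithd1 carries a PITH domain, and Tmem234 is a transmembrane protein.

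Values are log2 signals, quantile normalized over the arrays, on which a difference of 1 is a 2-fold change. The authors' table has a floor of 3.32, where 18.7% to 23.9% of the signals of an array sat, and Pearson's r between arrays of 1 group was 0.943 to 0.983 across probe sets. The precision is limited by the number of arrays. The single Myd88 probe set lay between 7.50 and 8.31 (median 8.08) in treated KO mice and between 8.26 and 8.61 (median 8.49) in treated WT mice, and between 7.53 and 7.81 in untreated KO mice and between 8.23 and 8.51 in untreated WT mice. The genotypes thus overlapped on this probe set after treatment and not without it, and the deleted part of Myd88 is not stated, so whether the probes lie in it was not tested. The 8 colon epithelium markers averaged 12.67 ± 0.16 in treated KO, 12.41 ± 0.18 in treated WT, 12.40 ± 0.04 in untreated KO and 12.44 ± 0.04 in untreated WT mice (SD, n = 10, 10, 6 and 6). Of the 3 measured distal markers, Hoxd13 averaged 9.77, 10.28, 10.64 and 10.73 in the same groups and Hoxd12 4.46, 4.82, 5.38 and 5.24, both lowest in treated KO mice. Hoxa13 averaged 6.97, 6.45, 6.63 and 6.62, highest in treated KO mice. Squamous epithelium markers stood out in treated WT repeats 1 and 2, at means of 11.40 and 10.07, and averaged 5.61 ± 1.43 in treated KO, 7.27 ± 2.31 in treated WT, 5.05 ± 1.70 in untreated KO and 5.04 ± 0.88 in untreated WT mice (8 genes, of which Krt15 lay on the floor on 21 of the 32 arrays). In bulk tissue, fewer cells of a type and less RNA per cell cannot be told apart.

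The promoters of 8 of the 9 genes had an entry in the RefSeq table of build GRCm38.p6, each entry running from 250 bases before to 50 bases after the gene's start. The 4 shown belong to the genes with a probe set on which no KO array reached the range of the WT arrays, other than Khdrbs1. They are Efhd2 (chr4:141874871-141875170, minus strand), Ptp4a2 (chr4:129820229-129820528, plus strand), Pnrc2 (chr4:135873797-135874096, minus strand) and Dcdc2b (chr4:129614223-129614522, minus strand), printed 5′ to 3′ in the direction of transcription, with matches to the CCAAT box (CCAAT) and the GC box (GGGCGG) on either strand in capitals.
Efhd2: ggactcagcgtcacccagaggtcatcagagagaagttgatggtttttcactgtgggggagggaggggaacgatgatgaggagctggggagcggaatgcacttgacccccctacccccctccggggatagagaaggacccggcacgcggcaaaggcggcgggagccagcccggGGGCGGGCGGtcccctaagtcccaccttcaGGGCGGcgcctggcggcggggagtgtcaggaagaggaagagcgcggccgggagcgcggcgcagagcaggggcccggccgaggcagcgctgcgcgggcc
Ptp4a2: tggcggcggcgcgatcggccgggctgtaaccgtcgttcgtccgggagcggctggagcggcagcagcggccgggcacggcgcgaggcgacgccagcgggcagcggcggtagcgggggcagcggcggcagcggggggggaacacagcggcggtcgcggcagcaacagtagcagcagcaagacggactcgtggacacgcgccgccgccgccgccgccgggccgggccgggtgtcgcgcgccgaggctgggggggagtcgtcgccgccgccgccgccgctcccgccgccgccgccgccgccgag
Pnrc2: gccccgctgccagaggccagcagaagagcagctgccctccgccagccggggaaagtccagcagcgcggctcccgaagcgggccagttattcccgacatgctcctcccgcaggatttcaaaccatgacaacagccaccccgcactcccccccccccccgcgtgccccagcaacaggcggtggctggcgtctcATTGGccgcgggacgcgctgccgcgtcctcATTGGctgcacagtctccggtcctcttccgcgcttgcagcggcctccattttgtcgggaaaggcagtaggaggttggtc
Dcdc2b: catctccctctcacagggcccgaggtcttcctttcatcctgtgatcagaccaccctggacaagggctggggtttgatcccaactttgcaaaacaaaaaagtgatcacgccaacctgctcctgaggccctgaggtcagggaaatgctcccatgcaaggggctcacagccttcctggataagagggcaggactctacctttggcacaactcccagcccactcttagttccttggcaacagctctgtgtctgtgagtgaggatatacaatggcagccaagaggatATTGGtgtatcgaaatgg

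These windows differ widely in composition. Efhd2 had a GC content of 70.3% with 27 CpG dinucleotides and 3 matches to the GC box, a pair of which overlap. Ptp4a2 had 81.7% GC, 60 CpG and no match to either box. Pnrc2 had 67.7% GC, 25 CpG and 2 matches to the CCAAT box, and Dcdc2b had 53.0% GC, 3 CpG and 1 match to the CCAAT box. Over all 32851 promoters of that table the median was 52.7% GC and 7 CpG, 37.4% held the CCAAT box and 35.7% the GC box. The AP-1 site (TGACTCA, in 5.20% of all promoters), the E-box (CACGTG, in 7.15%) and the NF-kappaB site (in 8.46%) matched in none of the 8 windows on either strand, and the TATA box (TATAAA, in 13.6%) matched in that of Snhg3 alone. A match describes letters only, and the probes of the arrays were not compared with these sequences.

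Of the 26 probe sets, 2 lay on the floor on every array (1 of Khdrbs1 and 1 of Pithd1), so 24 were measured. On 5 of them, from 5 genes, the 16 KO and the 16 WT arrays did not overlap, against 20 of all 45037 probe sets (0.0444%). On 4 of these KO arrays lay below WT (0.0289% of all probe sets) and on 1 above (0.0155%). Within treated mice 8 probe sets did not overlap (0.235% of all), 7 of them lower and 1 higher in KO. Within untreated mice 16 did not (0.735% of all), 11 lower and 5 higher. Those 8 probe sets, from 6 genes, were free of overlap in the same direction within treated and within untreated mice alike (0.0644% of all). These counts restate how the genes were chosen. Among the measured probe sets, 15 were lower in KO with and without treatment, 6 were higher in both, and 3 differed in sign. A difference of 2-fold or more in the same direction in both was found on 5 (0.0755% of all). The median size of the KO minus WT difference over the 26 probe sets was 0.40 in treated and 0.56 in untreated mice, beside 0.13 and 0.11 over all probe sets.

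**Figure D1:**
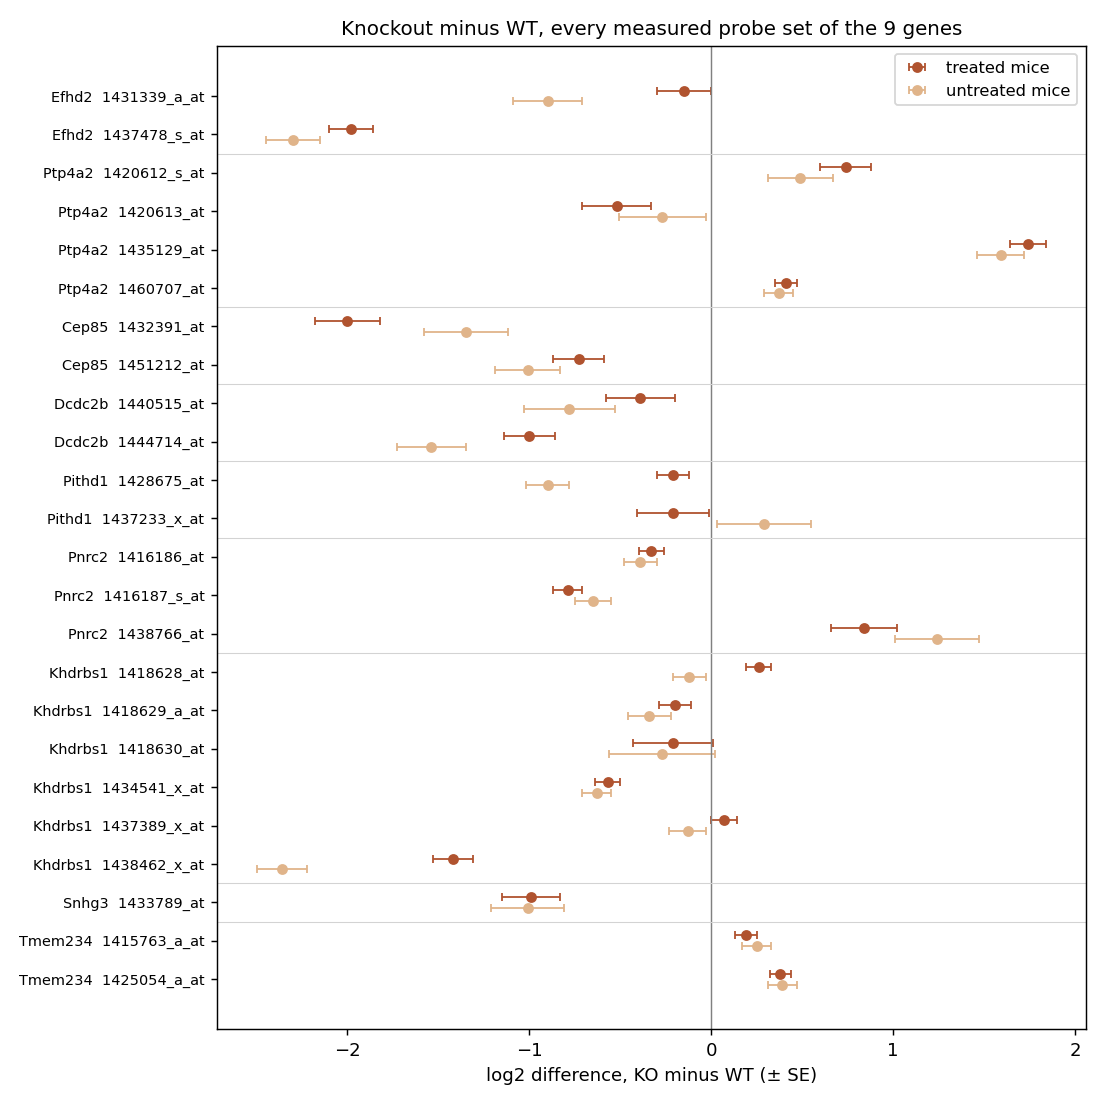
KO minus WT log2 difference with its standard error for each of the 24 measured probe sets, in treated mice (dark points) and untreated mice (light points). Points left of 0 are lower in KO: Efhd2 1437478_s_at lies at -1.98 and -2.30, while Ptp4a2 1435129_at lies on the other side at 1.74 and 1.59, and probe sets of 1 gene are often far apart.

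Efhd2 showed the widest gap of any of these genes. On probe set 1437478_s_at the treated KO arrays ran from 9.45 to 10.14 (median 9.79), against 11.51 to 11.86 (median 11.80) in treated WT mice. The untreated KO arrays ran from 8.83 to 10.33 (median 9.31), against 11.54 to 11.81 (median 11.75) in untreated WT mice. Every KO array was below every WT array, and 1.18 log2 units separated the highest KO array from the lowest WT array. KO minus WT was -1.98 ± 0.12 (SE) in treated and -2.30 ± 0.15 in untreated mice, a signal 3.94-fold and 4.93-fold lower in KO. The suffix of this probe set, _s_at, marks probes that may match transcripts of more than 1 gene.

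The other Efhd2 probe set, 1431339_a_at, gave a different picture. It ran from 8.99 to 10.82 (median 9.64) in treated KO mice, against 9.56 to 10.24 (median 9.91) in treated WT mice, and from 8.69 to 9.04 (median 8.82) in untreated KO mice, against 9.54 to 9.94 (median 9.75) in untreated WT mice. The untreated genotypes did not overlap, while the treated ones did, with treated KO repeats 2 and 4 (10.38 and 10.82) above every treated WT array. KO minus WT was -0.15 ± 0.15 in treated and -0.90 ± 0.19 in untreated mice. The markers of leukocytes, which are rich in Efhd2, averaged 6.22 ± 0.55 in treated KO, 6.56 ± 0.45 in treated WT, 6.31 ± 0.35 in untreated KO and 6.38 ± 0.53 in untreated WT mice (SD, 9 genes). Between treated KO and treated WT mice 8 of the 9 were lower in KO, with a median difference of -0.40, and 2 were lower at an unadjusted p under 0.05, while 5 of 9 were lower in untreated KO mice, with a median of -0.04. Their part in the Efhd2 difference was not tested. Of these markers Cd3e lay on the floor on 16 of the 32 arrays, Cd79a on 5 and Cd79b on 3.

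Of the 5 genes with a separating probe set, only Ptp4a2 was higher in KO on it. On 1435129_at treated KO arrays lay between 12.29 and 12.65 (median 12.39), against 10.22 and 11.17 (median 10.73) in treated WT mice. Untreated KO arrays lay between 12.24 and 12.69 (median 12.38), against 10.54 and 11.14 (median 10.81) in untreated WT mice. All KO arrays were above all WT arrays, by at least 1.07 log2 units. The KO minus WT difference was 1.74 ± 0.10 in treated and 1.59 ± 0.13 in untreated mice (3.34-fold and 3.01-fold).

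The 3 other Ptp4a2 probe sets did not move as one with it. 1420612_s_at (0.74 ± 0.14 in treated and 0.49 ± 0.18 in untreated mice) and 1460707_at (0.41 ± 0.06 and 0.37 ± 0.08) were also higher in KO, by less, and overlapped between the 16 and 16 arrays. 1420613_at went the other way, with KO minus WT at -0.52 ± 0.19 in treated and -0.27 ± 0.24 in untreated mice. On that probe set untreated KO mice split: repeats 2 and 5 read 12.55 and 12.29, above every other array, and the other 4 read 10.58 to 10.90, below every WT array, while untreated WT mice read 11.48 to 11.69. On 1435129_at the same repeats 2 and 5 were the highest untreated KO arrays too, at 12.69 and 12.58.

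**Figure D2:**
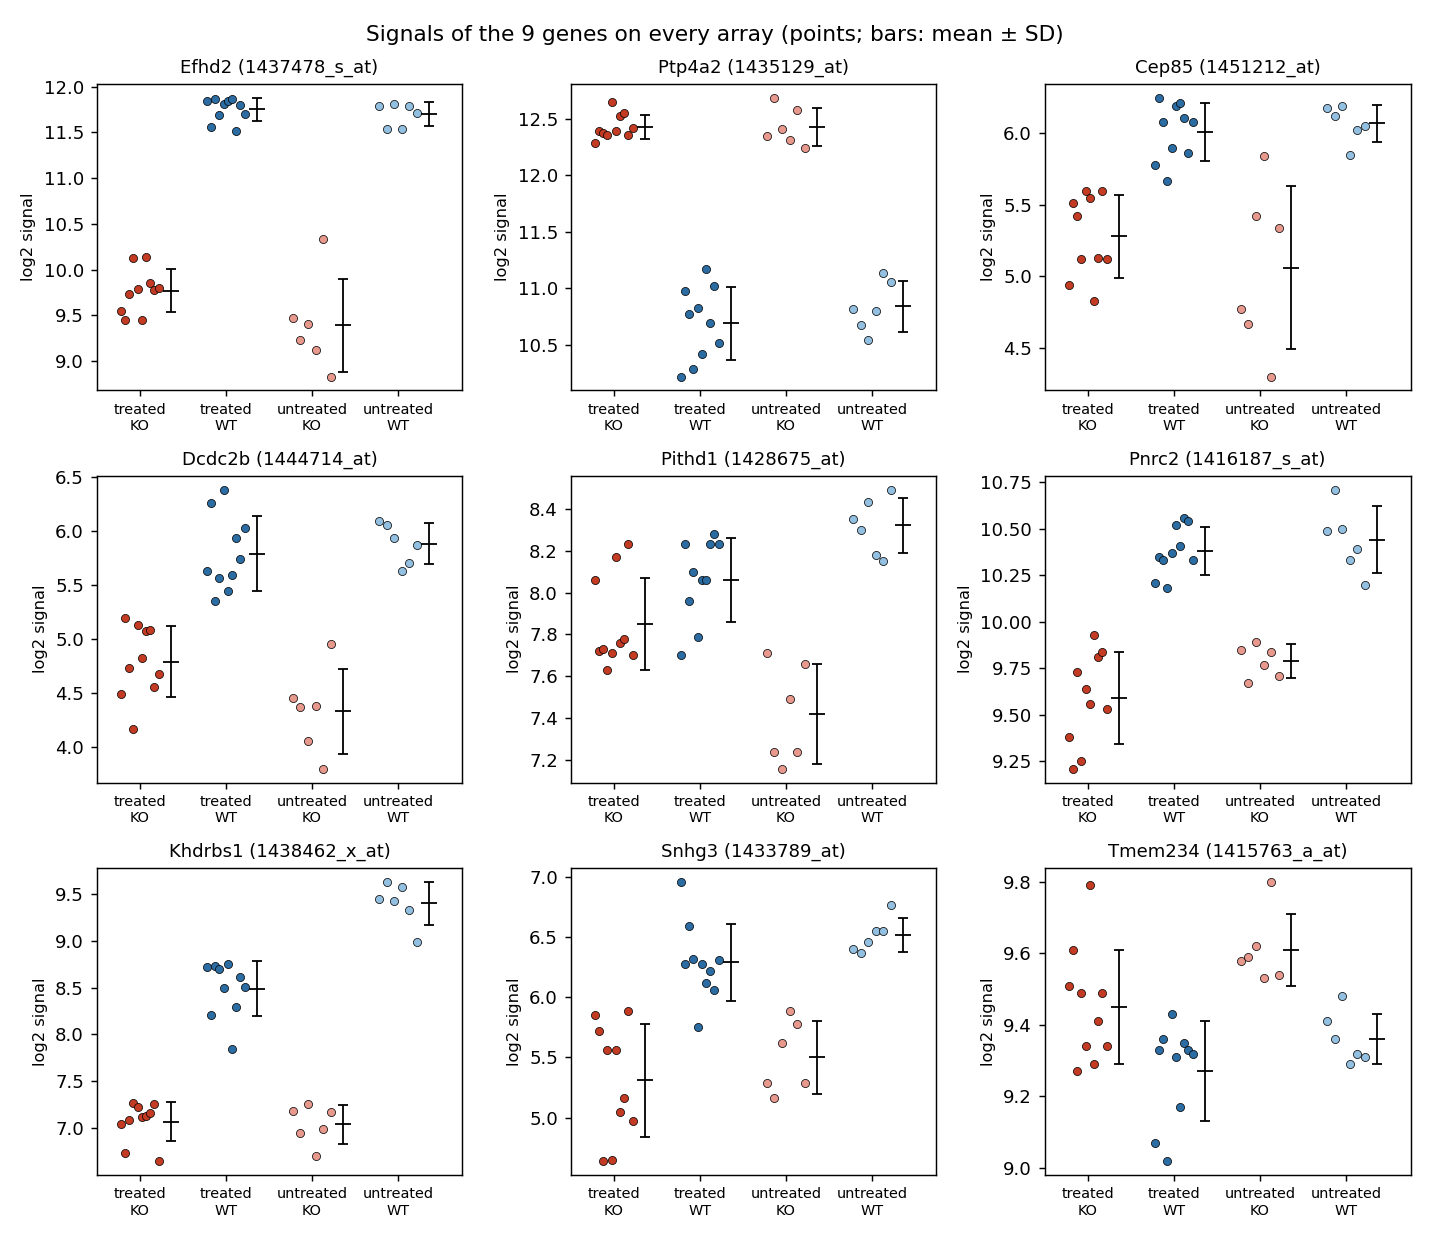
Log2 signal of 1 probe set per gene, the measured one with the least overlap between genotypes, on every array (points) with the group mean and SD (bars), in treated KO, treated WT, untreated KO and untreated WT mice from left to right. The vertical axes differ between panels and do not start at 0. The KO points of Efhd2, Dcdc2b, Pnrc2 and Khdrbs1 lie wholly below the WT points and those of Ptp4a2 wholly above.

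Among the genes that act on RNA, Khdrbs1 differed most, but on 1 of its 7 probe sets. On 1438462_x_at treated KO arrays ran from 6.65 to 7.27 (median 7.12), against 7.84 to 8.75 (median 8.56) in treated WT mice. Untreated KO arrays ran from 6.70 to 7.26 (median 7.08), against 8.99 to 9.63 (median 9.44) in untreated WT mice. KO arrays had nearly the same range with and without treatment and never reached a WT array. KO minus WT was -1.42 ± 0.11 in treated and -2.36 ± 0.14 in untreated mice (2.67-fold and 5.14-fold lower). Probe set 1434541_x_at did not overlap within either treatment, at -0.57 ± 0.07 in treated and -0.63 ± 0.08 in untreated mice, and missed a complete separation by 0.03 log2 units. The other 4 measured Khdrbs1 probe sets overlapped, with differences from -0.21 to 0.26 in treated and from -0.34 to -0.12 in untreated mice. The suffix _x_at marks probes that resemble other sequences.

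Pnrc2 split between its probe sets. On 1416187_s_at treated KO arrays ran from 9.21 to 9.93 (median 9.60), against 10.18 to 10.56 (median 10.36) in treated WT mice, and untreated KO arrays from 9.67 to 9.89 (median 9.80), against 10.20 to 10.71 (median 10.44) in untreated WT mice. KO arrays lay wholly below WT arrays, with KO minus WT at -0.79 ± 0.08 in treated and -0.65 ± 0.10 in untreated mice. 1416186_at was lower in KO too (-0.33 ± 0.07 and -0.39 ± 0.09). The dimmer 1438766_at was higher in KO, with KO minus WT at 0.84 ± 0.18 in treated and 1.24 ± 0.23 in untreated mice, and its untreated KO arrays (6.37 to 7.14) lay above all untreated WT arrays (4.35 to 5.95).

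Snhg3 had a single probe set, 1433789_at. Treated KO arrays ran from 4.64 to 5.89 (median 5.36), against 5.75 to 6.96 (median 6.28) in treated WT mice, and untreated KO arrays from 5.16 to 5.89 (median 5.46), against 6.37 to 6.77 (median 6.50) in untreated WT mice. The untreated genotypes did not overlap, and the treated ones did, at the edges. KO minus WT was -0.99 ± 0.16 in treated and -1.01 ± 0.20 in untreated mice, about the same with and without treatment.

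Of the cytoskeletal genes, Cep85 was lower in KO on both probe sets, which overlapped between KO and WT only across treatments. On 1432391_at treated KO arrays ran from 4.71 to 6.35 (median 5.30), against 6.88 to 8.13 (median 7.24) in treated WT mice, and untreated KO arrays from 6.17 to 7.13 (median 6.78), against 7.71 to 8.54 (median 8.04) in untreated WT mice. The genotypes differed by -2.0 ± 0.18 (KO minus WT) in treated and -1.35 ± 0.23 in untreated mice (4.00-fold and 2.55-fold lower). On 1451212_at it was -0.73 ± 0.14 and -1.01 ± 0.18. Dcdc2b, a dim gene, separated on 1444714_at, where treated KO arrays ran from 4.17 to 5.19 (median 4.77), against 5.35 to 6.38 (median 5.69) in treated WT mice, and untreated KO arrays from 3.80 to 4.95 (median 4.38), against 5.63 to 6.09 (median 5.90) in untreated WT mice. The gap between the highest KO and the lowest WT array was 0.16, the narrowest of the 5 separating probe sets, and KO minus WT was -1.0 ± 0.14 in treated and -1.54 ± 0.19 in untreated mice. Its other probe set, 1440515_at, was lower in KO by less and overlapped (-0.39 ± 0.19 and -0.78 ± 0.25).

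By the largest difference of each gene, Pithd1 and Tmem234 differed least in treated mice. Pithd1 1428675_at ran from 7.63 to 8.23 (median 7.74) in treated KO mice, against 7.70 to 8.28 (median 8.08) in treated WT mice, and from 7.16 to 7.71 (median 7.37) in untreated KO mice, against 8.15 to 8.49 (median 8.33) in untreated WT mice. The untreated genotypes lay apart and the treated ones overlapped almost fully, with KO minus WT at -0.21 ± 0.09 in treated and -0.90 ± 0.12 in untreated mice. The second Pithd1 probe set, 1437233_x_at, lay on the floor on all 10 treated KO, 7 of 10 treated WT, 3 of 6 untreated KO and 4 of 6 untreated WT arrays, so its difference of opposite sign in treated and untreated mice cannot be read. Tmem234 was higher in KO on both probe sets, by 0.19 ± 0.06 and 0.38 ± 0.06 in treated and by 0.25 ± 0.08 and 0.39 ± 0.08 in untreated mice. Its untreated arrays did not overlap on either probe set.

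The response to AOM/DSS, treated minus untreated mice of a genotype, was tested with limma over all 45037 probe sets. A gene chosen for low untreated KO signals is thereby more likely to show a rise in KO mice. Likewise, a gene chosen for high untreated WT signals is more likely to show a fall in WT mice. The tests make no allowance for either. In KO mice 4 of the 26 probe sets passed a Benjamini-Hochberg adjusted p of 0.05, a share near that of all probe sets (13.8%). Of these, 2 rose (6.16% of all) and 2 fell (7.62% of all), with 5 higher and 6 lower at an unadjusted p under 0.05. In WT mice 2 passed, beside 0.93% of all probe sets. Both fell (0.664% of all), and limma called 0 higher (0.266% of all), with 0 higher and 6 lower at an unadjusted p under 0.05. The median response over the 26 probe sets was 0.00 in KO and -0.09 in WT mice, beside 0.00 over all probe sets in each genotype. The KO and WT responses share no arrays.

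The Efhd2 probe set 1431339_a_at rose in KO mice. Treated KO arrays ran from 8.99 to 10.82 (median 9.64), against 8.69 to 9.04 (median 8.82) in untreated KO mice, and 1 treated array, repeat 9 at 8.99, lay within the untreated range. The rise was 0.88 ± 0.17 log2 units (1.84-fold, limma adjusted p = 0.000875), and in WT mice the response was 0.14 ± 0.17 (adjusted p = 0.845). The interaction, which tests whether the responses of the genotypes differ, was 0.74 ± 0.25 (adjusted p = 0.245). The brighter 1437478_s_at gave 0.37 ± 0.14 in KO (adjusted p = 0.0701) and 0.05 ± 0.14 in WT mice (adjusted p = 0.978). Of the 9 measured leukocyte markers, limma called 1 higher and 1 lower in KO mice, beside 6.16% and 7.62% of all probe sets. Cd68, a macrophage protein, rose (1.18 ± 0.30, adjusted p = 0.0077) and Cd79b, a part of the B cell receptor, fell (-1.48 ± 0.49, adjusted p = 0.043). The other myeloid markers Csf1r (-0.08), Adgre1 (0.18) and Itgam (0.47) were not called. Nor were the other B cell markers Cd79a (-0.78) and Ms4a1 (-0.59), and the median response of the 9 markers was 0.11. Their part in the Efhd2 response was not tested.

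Cep85 1432391_at fell in KO mice. Treated KO arrays ran from 4.71 to 6.35 (median 5.30), against 6.17 to 7.13 (median 6.78) in untreated KO mice, a fall of 1.36 log2 units ± 0.21 (2.56-fold, limma adjusted p = 7.09e-05). In WT mice the response had the same sign, -0.71 ± 0.21, with an adjusted p of 0.101, and the interaction was -0.65 ± 0.29 (adjusted p = 0.433). The other Cep85 probe set, 1451212_at, responded by 0.22 ± 0.16 in KO and -0.05 ± 0.16 in WT mice, with neither called.

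Pithd1 1428675_at rose in KO mice by 0.43 ± 0.10 log2 units (1.35-fold, limma adjusted p = 0.0048), with arrays at 7.63 to 8.23 in treated KO and 7.16 to 7.71 in untreated KO mice. In WT mice the response was -0.25 ± 0.10 (adjusted p = 0.284). The treated KO arrays fell into 7 between 7.63 and 7.78 and 3 between 8.06 and 8.23. Both sets reached into the range of the treated WT arrays, 7.70 to 8.28. The interaction was 0.68 ± 0.15 with an adjusted p of 0.0777. The genotypes were apart on this probe set in untreated mice alone, so its rise shares the untreated KO arrays with the difference that chose the gene. Tmem234 1425054_a_at fell in KO mice by 0.24 log2 units ± 0.07 (adjusted p = 0.0144), and its response in WT mice was of like size, -0.23 ± 0.07 (adjusted p = 0.0989). The fall in KO mice was -0.12 (adjusted p = 0.496) with each array centred on its median and -0.21 (adjusted p = 0.058) with the values as deposited.

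In WT mice the genotype-separating Khdrbs1 probe set fell. On 1438462_x_at treated WT arrays ran from 7.84 to 8.75 (median 8.56), against 8.99 to 9.63 (median 9.44) in untreated WT mice, with no overlap. The fall was 0.92 log2 units ± 0.12 (1.89-fold, limma adjusted p = 0.000248), while the response in KO mice was 0.03 ± 0.12 (adjusted p = 0.958). Without treated WT repeats 1 and 2, which carried the squamous epithelium signals, the WT response was -0.91 (adjusted p = 0.000632). The 8 squamous markers had a median response of 2.09 in WT mice, with 0 called by limma and 5 higher at an unadjusted p under 0.05. Khdrbs1 1418628_at also fell in WT mice, by 0.33 log2 units ± 0.08 (adjusted p = 0.0404), against 0.05 ± 0.08 in KO mice (adjusted p = 0.761). That smaller fall lost its call when any 1 of 10 arrays was left out (treated WT repeats 2, 4, 6, 7 and 10, untreated WT repeats 2 to 6), over an adjusted p of 0.0302 to 0.114, and was -0.32 (adjusted p = 0.0583) without treated WT repeats 1 and 2. The call was also lost with squamous and skeletal muscle covariates (-0.25, adjusted p = 0.223), with median centring (adjusted p = 0.159), with the 3 prime minus 5 prime covariate (adjusted p = 0.0869) and with the repeat number as a replicate block (adjusted p = 0.0814).

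The interaction passed the threshold on 1 of the 26 probe sets, Khdrbs1 1438462_x_at, beside 10 of all 45037 (0.0222%), all 10 of them positive (0.0222%), that is, with a response more positive in KO than in WT mice. Its value was 0.94 ± 0.18 log2 units with a limma adjusted p of 0.0399: the KO arrays did not move with treatment beyond their spread, and the WT arrays fell toward them. The interaction and the WT fall use the same arrays as the genotype difference that chose the gene, -2.36 in untreated mice. They are therefore not independent of the choice. The call was near the threshold. It was lost when any 1 of 20 arrays was left out (treated KO repeats 1, 3, 4, 5, 7 and 8, treated WT repeats 2, 5, 8 and 10, untreated KO repeats 1 to 5 and untreated WT repeats 1 to 5), over an adjusted p of 0.0195 to 0.0986, while the value stayed between 0.87 and 1.02. Over all 43 alternatives the adjusted p ran from 0.0162 to 0.13 and passed in 18. On the other 6 Khdrbs1 probe sets the interaction was between 0.00 and 0.38 and none passed.

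**Figure D3:**
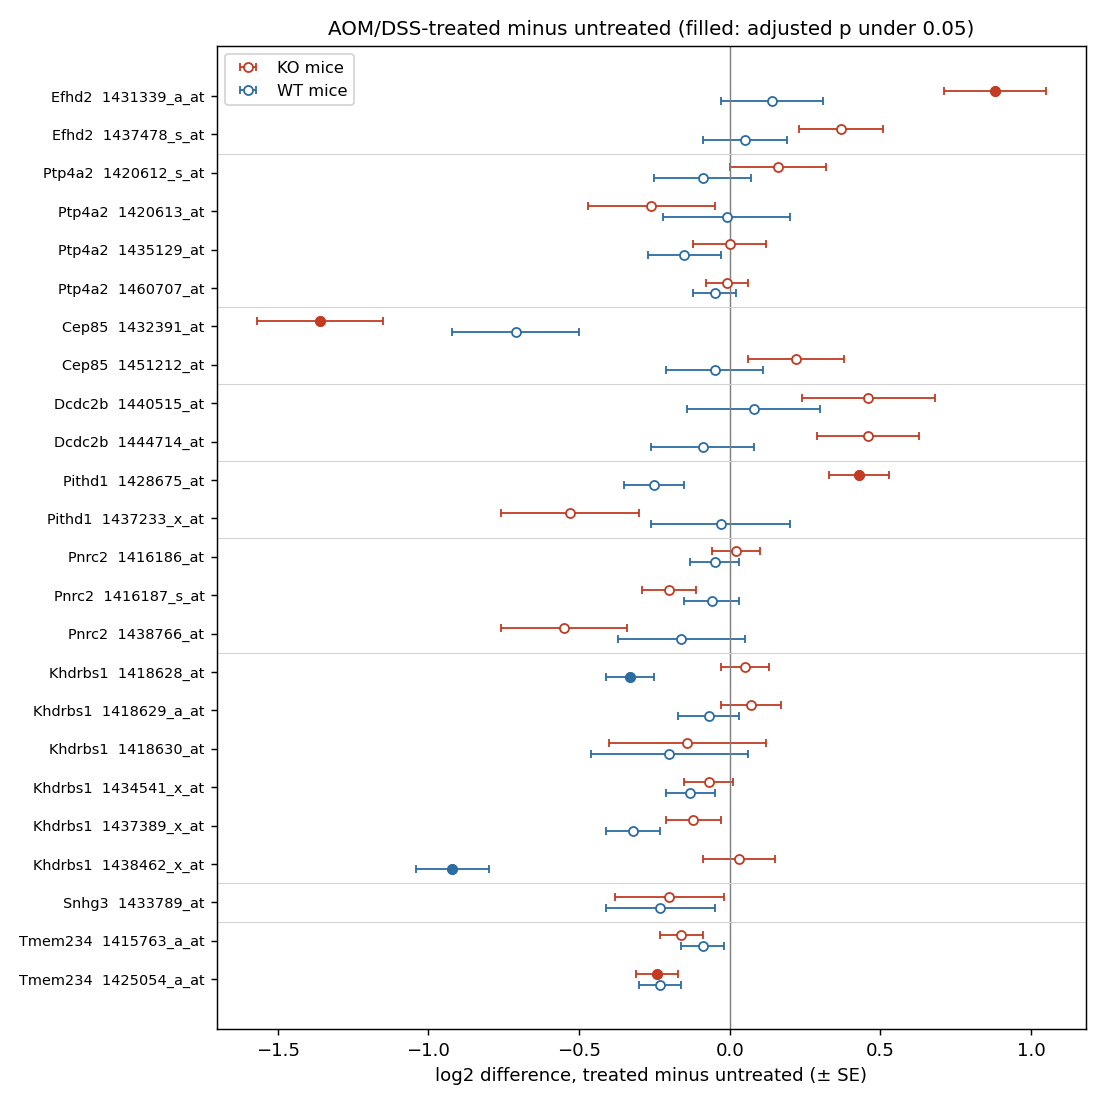
Treated minus untreated log2 difference with its standard error for the 24 measured probe sets, in KO mice (red) and WT mice (blue), with filled points at an adjusted p under 0.05. Filled points are few: Efhd2 1431339_a_at (0.88) and Pithd1 1428675_at (0.43) to the right and Cep85 1432391_at (-1.36) and Tmem234 1425054_a_at (-0.24) to the left in KO mice, and Khdrbs1 1438462_x_at (-0.92) and 1418628_at (-0.33) to the left in WT mice.

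The partners and relatives of these genes were followed through their brightest probe sets. The shares set beside the list counts, here and below, are over all probe sets, dim ones included. In the fit of all 45037 probe sets limma called 6205 in KO mice, in either direction. Fitted to the brightest probe set of each of the 18193 named genes alone, it called 3404. The small nucleolar RNA host genes, to which Snhg3 belongs, fell in KO mice on 6 of 9 genes, beside 7.62% of all probe sets, with 9 of 9 lower and a median of -0.60. Zfas1 fell by 1.07 log2 units ± 0.18 (limma adjusted p = 0.000152), Gas5 by 0.85 ± 0.13 (adjusted p = 8.95e-05) and Snhg8 by 0.62 ± 0.09 (adjusted p = 6.4e-05). Snhg12, which lies between Ptp4a2 and Snhg3 on chromosome 4, fell by 0.60 ± 0.13 (adjusted p = 0.00211) in KO mice and did not separate the genotypes. In WT mice limma called 0 of the 9, with 6 lower at an unadjusted p under 0.05 and a median of -0.26, and the interaction called 0, with 3 lower at an unadjusted p under 0.05. Snhg3 itself responded by -0.20 ± 0.18 in KO mice (adjusted p = 0.538) and -0.23 ± 0.18 in WT mice (adjusted p = 0.683). Colon epithelium markers moved in the other direction in treated KO mice, with 4 of 8 called higher, beside 6.16% of all probe sets, and a median of 0.26, and their part was not tested.

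Of 13 measured (16 listed) genes of nonsense-mediated decay and decapping, the process Pnrc2 takes part in, 2 fell in KO mice: Dcp1b, a decapping cofactor, by 0.55 log2 units ± 0.16 (limma adjusted p = 0.0188), and Edc4, a decapping scaffold, by 0.23 ± 0.08 (adjusted p = 0.04). That count stands beside 7.62% of all probe sets that fell, is too small to set the list apart, and was 1 with each array centred on its median. None of the 13 was called in WT mice, with 0 at an unadjusted p under 0.05, and the medians were -0.07 in KO and -0.03 in WT mice. The 4 CNNM transporters that PRL phosphatases bind gave 0 calls by limma in either genotype, with 0 at an unadjusted p under 0.05 and medians of 0.05 and -0.04. The 8 measured of 10 listed paralogs of these genes (Efhd1, Ptp4a3, Khdrbs2, Khdrbs3, Pnrc1, Dcdc2a, Dcdc2c and Dcx) gave 0 calls in either genotype, with 3 higher in KO mice at an unadjusted p under 0.05. In KO mice 2 of these 8 paralogs were called higher with each array centred on its median, and 1 with the values as deposited.

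The 9 genes lie in a single stretch of chromosome 4 in the gene order of the RefSeq table (assembly GRCm38.p6). From Tmem234 at one end to Efhd2 at the other the stretch holds 415 RefSeq genes, 212 of them with a named probe set. Counting those 212, Tmem234 is number 1, Dcdc2b 2, Khdrbs1 8, Ptp4a2 9, Snhg3 35, Cep85 76, Pnrc2 109, Pithd1 113 and Efhd2 212. Khdrbs1 and Ptp4a2, which differed in opposite directions, are thus next to each other among the 212, with 1 other RefSeq gene between them. On 8 of the 212 genes (3.77%) some probe set did not overlap between genotypes in the same direction within treated and within untreated mice, against 12 of all 18193 genes (0.066%). These were 6 of the 9 genes, Pafah2 and Hspb7. None of the 40 named genes before the stretch, none of the 40 after it and none of the other 803 named genes of the chromosome did so. Overlap is not absence of a difference: Snhg3, Pithd1 and Tmem234 overlapped too, as did Gpatch3 within the stretch, at -1.10 in treated and -1.15 in untreated mice. Trim62, among the 40 named genes before the stretch, differed by -1.06 and -1.15 with overlap, a difference larger than that of Snhg3. The stretch was drawn around genes chosen for this difference, and the shares describe it without testing it.

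Hspb7 encodes a small heat shock protein of heart and muscle. On 1 of its 3 probe sets, 1434927_at, the genotypes differed by about as much as on Efhd2 1437478_s_at. That probe set was picked as the Hspb7 probe set with the least overlap between genotypes, and the others are not described here. On 1434927_at treated KO arrays ran from 5.04 to 6.96 (median 5.64), against 7.28 to 8.76 (median 7.81) in treated WT mice, and untreated KO arrays from 4.92 to 6.05 (median 5.30), against 7.39 to 7.95 (median 7.51) in untreated WT mice. KO minus WT was -2.14 ± 0.23 in treated and -2.14 ± 0.30 in untreated mice. Skeletal muscle markers averaged 6.40 ± 1.32 in treated KO, 6.93 ± 1.65 in treated WT, 6.12 ± 1.40 in untreated KO and 5.72 ± 1.86 in untreated WT mice (SD), and their part in the Hspb7 difference was not tested. Pafah2, an enzyme that cleaves platelet-activating factor, was lower in KO by 0.80 ± 0.13 in treated and 0.68 ± 0.17 in untreated mice on 1448489_at.

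**Figure D4:**
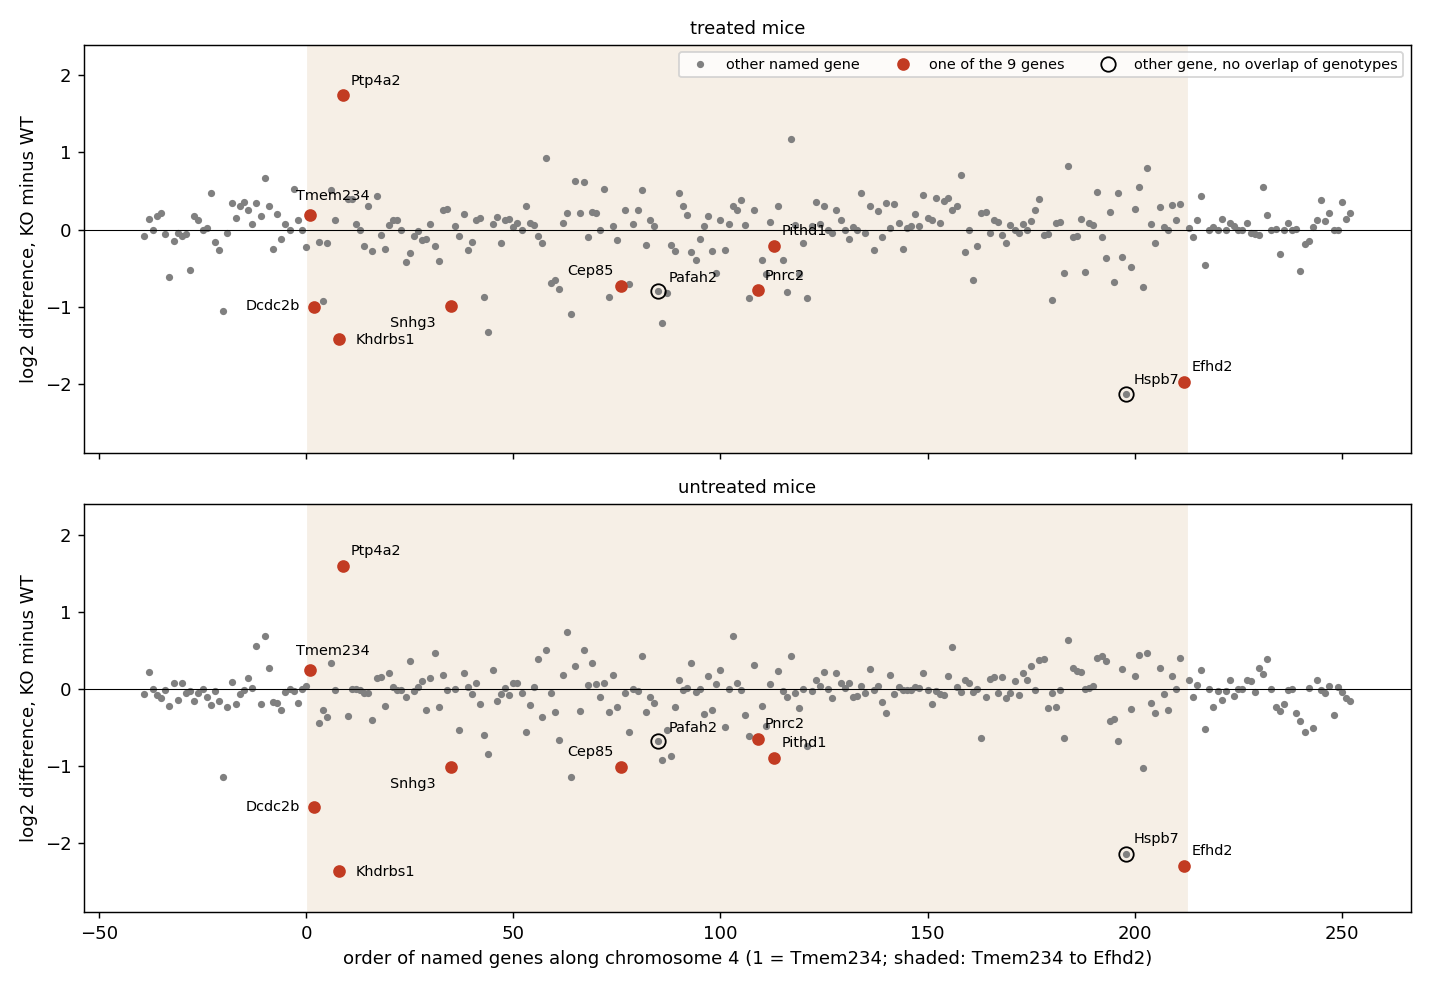
KO minus WT log2 difference against gene order along chromosome 4 (1 is Tmem234) in treated mice (upper panel) and untreated mice (lower panel), for the 212 named genes from Tmem234 to Efhd2 (shaded) and 40 on each side. Each gene is shown by the probe set with the least overlap between genotypes. Red points are the 9 genes, and ringed points are Pafah2 and Hspb7. Most grey points lie near 0 on both sides of the outlying genes. Some of them come from probe sets on or near the floor, where a difference near 0 cannot be read.

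Over the genome, the named probe sets on which all 16 KO and all 16 WT arrays lay apart were on chromosomes 4 and 9 alone. Chromosome 4 held 6 of 2094 (0.287%), the 5 described above and Hspb7. Chromosome 9, which carries Myd88, held 4 of 1886 (0.212%): Clasp2, Itga9 and Tmppe, higher in KO, and Ctdspl, lower in KO. None of the 30755 named probe sets on the other chromosomes lay apart. Of the 10296 probe sets with no single gene name or no RefSeq chromosome, 10 did, all of them without a single gene name. The chromosome of these 10 was not looked up.

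**Figure D5:**
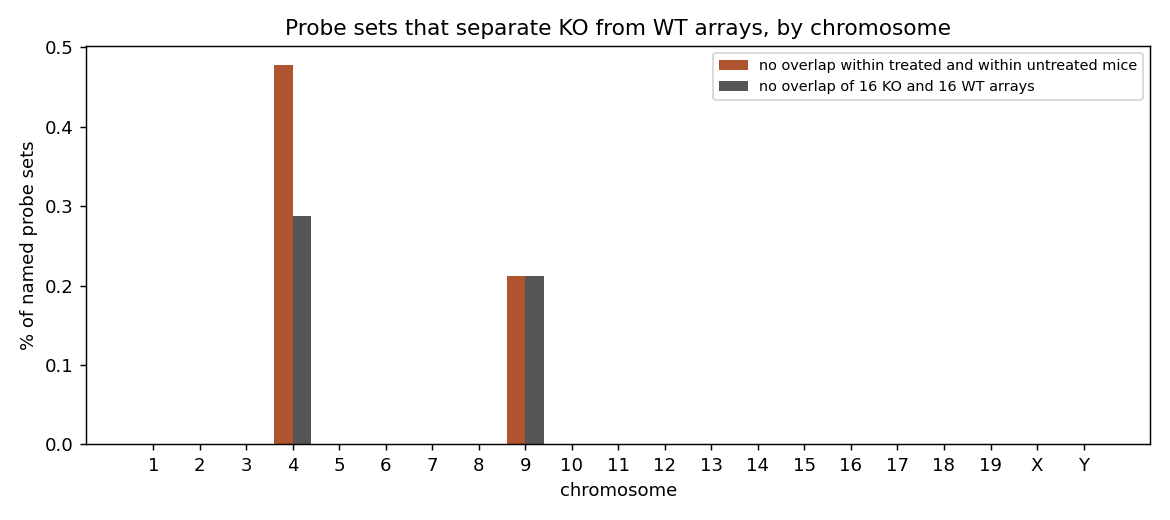
Share of named probe sets of each chromosome, in percent, on which KO and WT arrays did not overlap, within treated and within untreated mice (brown) and over all 16 and 16 arrays (grey). Chromosome 4 reaches 0.478% and 0.287% and chromosome 9 reaches 0.212% on both counts, and all other chromosomes are at 0.

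The genes most like Efhd2 and Ptp4a2 were sought among the brightest probe sets of all other genes. Over the 32 arrays, which hold both genotypes, Efhd2 1437478_s_at correlated most with Myd88 (Pearson's r = 0.82), Glb1 (0.81) and Kdf1 (0.76), the first pair on chromosome 9 and Kdf1 on chromosome 4. Ptp4a2 1435129_at correlated most with Itga9 (0.90), Tmppe (0.85) and Clasp2 (0.83), all on chromosome 9. With the group means taken away, the most similar genes were others and on other chromosomes: Ceacam11 (0.76), Khdc1b (0.75) and Iqub (0.74) for Efhd2, and Rffl (0.67), 2210407C18Rik (0.65) and Ralb (0.64) for Ptp4a2. These correlations are the highest among all genes compared and are given as descriptions.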

How the data were processed

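Total RNA of the distal colon of 32 mice was amplified and hybridised to Affymetrix arrays, per the labels' protocols. The deposited table holds log2 signals of 45101 probe sets, 64 of them controls; the summarisation software is not given in the sources used here. On the linear scale the 2% trimmed mean of each array was 150.9 to 151.3 and no value was below 10, so the authors had scaled the arrays and raised low signals. The log2 values were quantile normalized and fitted with limma 3.58.1 in R 4.3.3 (4 group means, 28 residual and 0.921 prior degrees of freedom), two-sided, with Benjamini-Hochberg adjustment over 45037 probe sets at 0.05, after a test on simulated data. Probe sets were named from the platform annotation and RefSeq: 34945 had 1 symbol, 932 several. All probe sets of the 9 genes are named; other genes are those in the stretch without overlap, Myd88, the 3 most correlated with Efhd2 and Ptp4a2, and called genes of fixed lists, up to 3 per list and direction; Pafah2, Gpatch3, Trim62, Snhg12, the leukocyte markers and the chromosome 9 genes were chosen after their values were seen. The members and lists were chosen with earlier results of these data known. The sample titles do not say that repeat numbers pair mice, and the main fit used no pairing. Deviations of same-numbered arrays correlated at -0.11 to 0.27, which cannot settle whether mice were paired. Alternatives were other scalings, filters, covariates, array weights, priors, a replicate block, a stricter threshold and each array left out.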

Additional observations from a re-analysis of the deposited data

Results flagged for a closer look

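On 5 of 95 sets of group values tested, 1 array stood far from the rest of its group by Dixon's gap ratio, where chance flags about 1 in 20. On Khdrbs1 1418629_a_at treated KO repeat 3 read 8.31, with the nearest treated KO array at 8.69. On Tmem234 1415763_a_at untreated KO repeat 5 read 9.80, with the nearest at 9.62. On Ptp4a2 1420612_s_at treated WT repeat 1 read 7.97, with the nearest at 8.48, and untreated WT repeat 6 read 9.13, with the nearest at 8.77. On Pithd1 1437233_x_at untreated WT repeat 3 read 4.38, with the nearest at 3.70, on a probe set that lay on the floor on 4 of the 6 arrays of that group. Treated WT repeat 1 is also 1 of the arrays with high squamous epithelium signals. With quantile normalization and all arrays, none of these probe sets was called in a treatment response. In that fit Tmem234 1415763_a_at responded by -0.16 in KO mice (limma adjusted p = 0.122), and it was called in KO mice in 1 alternative.

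The interaction of Khdrbs1 1438462_x_at, the difference between its KO and WT responses to AOM/DSS, was 0.94 ± 0.18 log2 units (limma adjusted p = 0.0399). As described above, the call was near the threshold and passed in 18 of 43 alternatives.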

How the results depend on the processing

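The count of probe sets of the 9 genes called in KO mice, 4, ran from 3 to 7 over 45 alternatives. It was 7 with probe sets at or above the 40th percentile of mean signal, and 4 to 6 with each array left out. The count called in WT mice, 2, was 1 with median centring, with the 3 prime minus 5 prime covariate, with squamous and skeletal muscle covariates, at an adjusted p under 0.01 and without treated WT repeats 1 and 2 (chosen after seeing the data), 0 with the brightest probe set of each gene, 5 with array weights, and 1 to 3 with each array left out. The interaction count, 1, was 0 with the values as deposited, the brightest probe sets, the squamous and skeletal muscle covariates, an adjusted p under 0.01 and without treated WT repeats 1 and 2, 2 with array weights and with the 3 prime minus 5 prime covariate, and 0 to 2 with each array left out. The setting with the brightest probe sets leaves out Khdrbs1 1438462_x_at and 1418628_at, so its 0 in WT mice and for the interaction does not test those calls. With the repeat number, which the sample titles do not describe as a pairing, as a replicate block, the counts were 5 in KO mice, 2 in WT mice (Khdrbs1 1418628_at not among them, limma adjusted p = 0.0814) and 0 for the interaction. Separating probe sets, 5, ran from 4 to 7, and those of 2-fold or more from 4 to 6. None of the called responses, the called interaction or the genotype differences of the 5 separating probe sets changed direction under the alternatives run for them, and other genotype differences and responses were not rerun one by one. Of all probe sets called in KO mice, 44.7% were higher under quantile normalization, 61.1% under median centring and 34.8% as deposited, while the median of all probe sets moved by at most 0.07. The cause of these changes was not tested. The floor limits Dcdc2b, Pithd1 1437233_x_at and Khdrbs1 1418630_at, which lay near or on it.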

Other observations

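Of the 10 probe sets with no single gene name on which all KO and all WT arrays lay apart, 3 were higher in KO, with KO minus WT differences of up to 9.09 log2 units in treated and 9.27 in untreated mice, and 7 were lower, by up to -4.59 in treated and -2.25 in untreated mice. Each of these extremes was larger than any difference of the 9 chromosome 4 genes except the last, which Efhd2 (-2.30) and Khdrbs1 (-2.36) passed in untreated mice. Their genes were not identified here.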
